A study of Mus musculus with 18 samples.

Results

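The AP-1 transcription factor genes described here are Fos, Fosb, Fosl1, Fosl2, Jun, Junb, Jund, Atf3, Batf3 and Maff. They were chosen by gene symbol. Each of the 10 is among the 16757 genes that carry an adjusted p for fibroblast RNA in the authors' deposited table, and each had a window among the 21883 protein-coding gene windows counted in the retinal chromatin data. AP-1 is not 1 protein but a family of dimers of basic leucine zipper proteins, in which a Fos-family protein pairs with a Jun-family protein, or Jun-family proteins pair with each other. ATF, BATF and small Maf proteins share the same fold and extend the set of dimers and of DNA sequences bound. Many of these genes are immediate-early genes, switched on within minutes by growth factors, stress or injury through MAP kinases, the serum response factor and CREB. In fibroblasts AP-1 keeps many fibroblast enhancers accessible, and in Muller glia it is among the first factors induced by retinal damage.

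The fibroblast samples were mouse embryonic fibroblasts (MEFs) of the R26-M2rtTA line on C57BL/6, which carries a doxycycline-dependent activator. All were infected with lentiviruses that express Brn2 (encoded by Pou3f2) and Myt1l under doxycycline. One group received these alone and the other received Ikzf1 and Ikzf4 as well, with 48 h of doxycycline and 3 RNA-seq and 3 ATAC-seq libraries in each group. The series also holds RNA libraries from single cells and from a multiome assay, which were not used here. That assay reads RNA and open chromatin in the same nuclei. Retinal chromatin came from 1 control and 1 Ikzf1/4 library of the multiome assay. The control is labelled as retina, Muller glia, the line GLAST-CRE ERT2 ; RosaYFP on C57BL/6 and mCherry. In that line a tamoxifen-activated Cre is driven by the glial gene Slc1a3 (GLAST), which limits it to cells with that promoter active, and a fluorescent reporter marks the recombined cells. The labels of the Ikzf1/4 library repeat its title in place of tissue, line, strain and condition. Both carry a note of tamoxifen at 14 days, while their run names carry 48 h, so the time of collection is uncertain. No protocol for cell preparation is given with either. Nothing in the labels says that the fibroblast replicates came from separate cultures, so their p-values measure the spread between these libraries, which may be technical.

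The added genes check the fibroblast labels. On the log2 scale of the authors' deposited table, Ikzf1 was higher by 7.76 (SE 0.17) and Ikzf4 by 8.54 (SE 0.15) in the group labelled with them. Myt1l, which both groups received, was also higher with Ikzf1/4, by 0.50 (SE 0.17) with a DESeq2 adjusted p of 0.0157, while Pou3f2 differed by -0.05 (SE 0.08) with a DESeq2 adjusted p of 0.689, both from the authors' deposited table. The transcript estimates of the 6 RNA libraries are not paired with gene names in the sources used here, so the level of an AP-1 gene in each fibroblast library was not analysed here. The retinal libraries had 13804758 fragments in 1888 control cells and 9562872 in 699 Ikzf1/4 cells, with medians of 6250 and 11026 fragments per cell. They shared 3 cell barcodes. By marker windows, 34.3% of the control cells (exact 95% binomial interval 32.1 to 36.5) and 20.03% of the Ikzf1/4 cells (17.1 to 23.2) were Muller glia-like, so that most cells of the library labelled Muller glia did not carry that signature. The others were rod-like, cone-like, bipolar-like, amacrine-like or microglia-like, or were in 2 clusters left unnamed. Classes were built from clusters made without the AP-1 windows. With 1 library per condition there was no replicate, so the retinal ratios have no test and their intervals cover counting error only.

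The sequence upstream of the start is shown for the AP-1 genes whose RNA passed the test and for Jun, the partner common to most AP-1 dimers. Each is the 250 bases before the start in RefSeq (GRCm38.p6), printed 5′ to 3′ on the gene's strand. Capitals mark a match on either strand to TGACTCA (the AP-1 element, whose other strand reads TGAGTCA), TGACGTCA (the cAMP response element bound by CREB and ATF proteins), the serum response element, or 3 related sequences added after the promoters were read: TGACATCA, TTACGTCA and TGACGTA. RefSeq's table held 9 of the 10 genes. Fosl1 was not in it.
Fos, chr12:85473640-85473889, + strand: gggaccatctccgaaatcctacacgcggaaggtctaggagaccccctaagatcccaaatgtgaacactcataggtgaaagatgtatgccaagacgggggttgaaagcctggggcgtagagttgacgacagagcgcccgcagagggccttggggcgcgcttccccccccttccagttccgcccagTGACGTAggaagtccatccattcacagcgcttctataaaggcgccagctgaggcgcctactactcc
Junb, chr8:84978749-84978998, - strand: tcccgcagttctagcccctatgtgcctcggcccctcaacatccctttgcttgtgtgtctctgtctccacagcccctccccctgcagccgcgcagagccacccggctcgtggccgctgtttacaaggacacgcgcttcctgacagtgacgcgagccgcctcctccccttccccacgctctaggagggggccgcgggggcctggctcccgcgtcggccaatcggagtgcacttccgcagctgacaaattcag
Jun, chr4:95052223-95052472, - strand: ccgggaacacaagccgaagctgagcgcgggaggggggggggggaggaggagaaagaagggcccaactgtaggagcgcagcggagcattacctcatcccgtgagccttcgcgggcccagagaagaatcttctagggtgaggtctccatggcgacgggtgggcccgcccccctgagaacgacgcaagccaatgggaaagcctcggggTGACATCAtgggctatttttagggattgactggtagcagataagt
Atf3, chr1:191183334-191183583, - strand: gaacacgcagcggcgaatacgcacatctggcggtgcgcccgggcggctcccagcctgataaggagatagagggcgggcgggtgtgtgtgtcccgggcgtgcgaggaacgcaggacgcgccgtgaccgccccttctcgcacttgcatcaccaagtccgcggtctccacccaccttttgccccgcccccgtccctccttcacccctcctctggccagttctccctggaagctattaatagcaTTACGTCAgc
Maff, second of 3 starts, chr15:79347270-79347519, + strand: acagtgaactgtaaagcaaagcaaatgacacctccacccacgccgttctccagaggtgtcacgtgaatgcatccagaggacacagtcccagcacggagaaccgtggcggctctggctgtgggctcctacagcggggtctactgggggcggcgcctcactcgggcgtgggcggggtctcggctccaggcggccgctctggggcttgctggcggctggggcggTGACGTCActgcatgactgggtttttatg

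The Fos promoter held TGACGTA at -66 to -60 from the start, and the Jun promoter held TGACATCA at -45 to -38. Atf3 held TTACGTCA at -10 to -3. The TGACGTA match on the other strand at -9 to -3 is the same site, since every TTACGTCA contains it. The second Maff start held a full TGACGTCA at -29 to -22, and the third start held TGACATCA at -45 to -38. Of the 11 starts listed for these genes, 1 held TGACGTCA, 0 held TGACTCA and 0 held a serum response element within 250 bases. Over all 32851 starts in the table the shares were 1.55%, 4.46% and 1.47%. Of the 3 added sequences, TGACATCA stood upstream of 2.93% of all starts, TTACGTCA of 0.447% and TGACGTA of 1.08%. They were added after these promoters were read, so these shares are not a background for their presence here. The letters GGGAA, the core of the sequence bound by Ikaros proteins (the products of the Ikzf genes), stood upstream of 7 of the 11 starts and 56.2% of all starts. A match is a description of the letters and not a measured site.

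In fibroblasts the family did not move as one. With Ikzf1/4 added, 4 of the 10 AP-1 genes rose (Maff, Junb, Fos and Fosl1), 1 fell (Atf3) and 5 did not pass the test (Fosb, Fosl2, Jun, Jund and Batf3). The background for that count is that 30.6% of all genes were called at a DESeq2 adjusted p under 0.05, 15.3% as higher and 15.4% as lower, by the authors' deposited table. None of the 10 reached a log2 fold change of 1 in the authors' deposited table. Their median was 0.10 there, beside -0.00043 over all genes with an adjusted p. In bulk RNA, fewer expressing cells and less RNA per cell cannot be told apart. The plot of the fibroblast fold changes gives each gene with its standard error.

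**Figure D1:**
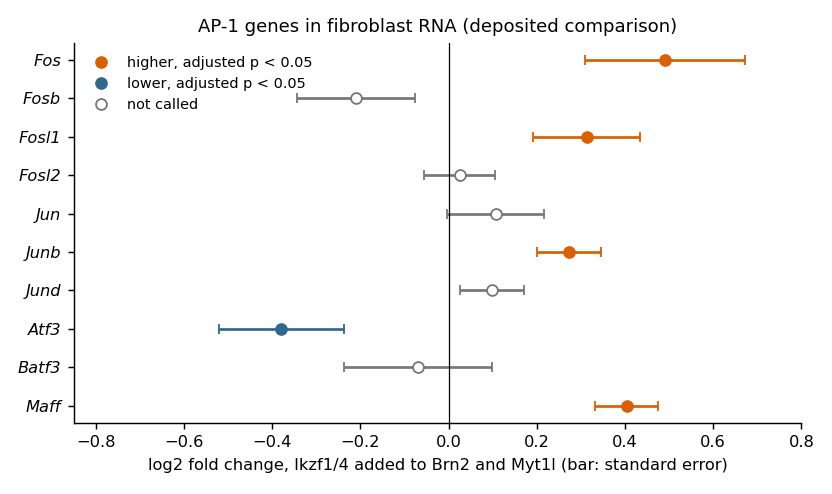
Log2 fold change of the 10 AP-1 genes in fibroblast RNA with Ikzf1/4 added to Brn2 and Myt1l, from the authors' deposited DESeq2 comparison. Points are the deposited estimates, bars their standard errors, and filled points passed an adjusted p of 0.05. Fos, Fosl1, Junb and Maff lie to the right of 0 and Atf3 to the left.

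Among the Fos family, Fos itself had the highest estimate. By the authors' deposited table it was higher by 0.49 (SE 0.18, 95% interval 0.13 to 0.85, DESeq2 adjusted p = 0.0258), a fold of 1.40, at a mean normalised count of 396. Fosl1, which encodes FRA1 and lacks the strong activation domain of FOS, rose by 0.31 (SE 0.12), with a DESeq2 adjusted p of 0.0349 and a mean normalised count of 494 by the authors' deposited table. Its call was lost when p-values were adjusted over every gene with a raw p (adjusted p = 0.0515). Fosl2 encodes FRA2. By the authors' deposited table it had a mean normalised count of 3792 and a log2 fold change of 0.03 (SE 0.08, DESeq2 adjusted p = 0.862). Fosb was at -0.21 in the authors' deposited table (SE 0.13, 95% interval -0.47 to 0.05, DESeq2 adjusted p = 0.247). The intervals of Fos and Fosb did not overlap, but the difference between the 2 genes was not tested.

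Of the Jun family only Junb passed. Junb can oppose Jun at shared target genes and is also an immediate-early gene. By the authors' deposited table it rose by 0.27 (SE 0.07, 95% interval 0.13 to 0.41, DESeq2 adjusted p = 0.00102), a fold of 1.21, at a mean normalised count of 1929. Jun, the founding member and a substrate of the JNK kinases, was at 0.11 in the authors' deposited table (SE 0.11, DESeq2 adjusted p = 0.523). Jund, the member kept at a steady level in many cell types, was at 0.10 (SE 0.07), with a DESeq2 adjusted p of 0.331 by the authors' deposited table. The 95% intervals of Jun (-0.11 to 0.32) and Jund (-0.04 to 0.24) include values as large as that of Junb for Jun and end below it for Jund.

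Among the other members, Maff rose and Atf3 fell. Maff encodes a small Maf protein without an activation domain that pairs with the NRF and BACH factors. It rose by 0.40 in the authors' deposited table (SE 0.07, 95% interval 0.26 to 0.54, DESeq2 adjusted p = 2.41e-07, mean normalised count 1313), a fold of 1.32. Atf3, a stress-induced factor, fell by 0.38 in the authors' deposited table (SE 0.14, 95% interval -0.66 to -0.10, DESeq2 adjusted p = 0.0274, mean normalised count 754). Batf3, best known for its part in dendritic cells, was near the limit of detection. Its mean normalised count was 4.61 in the authors' deposited table and its log2 fold change -0.07 (SE 0.17, DESeq2 adjusted p = 0.817). At an adjusted p under 0.01 only Maff and Junb were called, against 22.5% of all genes in the authors' deposited table. With a log2 fold change over 1 required as well as an adjusted p under 0.05, 0 of the 10 were, against 2.15% of all genes. The 5 calls were modest in size: in the authors' deposited table, 10.9% of the genes tested had a larger absolute log2 fold change than Fos, and 28.1% a larger one than Junb.

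The other genes of the pathway moved in mixed directions. The counts of each list are to be read against the 30.6% of all genes called in the authors' deposited table, 15.3% as higher and 15.4% as lower. Of 15 other basic leucine zipper partners with an adjusted p in the authors' deposited table, 7 rose and 0 fell. Leading them, by the authors' deposited table, were Ddit3 (0.60, SE 0.08, DESeq2 adjusted p = 1.39e-11) and Atf4 (0.37, SE 0.05, DESeq2 adjusted p = 4.68e-11), both known from the integrated stress response. Jdp2, whose protein can take the place of FOS beside JUN and repress, rose by 0.39 in the authors' deposited table (SE 0.09, DESeq2 adjusted p = 5.01e-05). Upstream, 4 of 20 kinases and transcription factors rose and 1 fell in the authors' deposited table, a called share no higher than that over all genes. Map3k1, a kinase that feeds the JNK pathway, rose by 0.76 in the authors' deposited table (SE 0.10, DESeq2 adjusted p = 1.74e-12), and Elk3, a partner of the serum response factor, by 0.26 (SE 0.06, DESeq2 adjusted p = 0.000207). Mapk3, which encodes ERK1, fell by 0.48 in the authors' deposited table (SE 0.06, DESeq2 adjusted p = 1.3e-12).

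Other immediate-early genes moved both ways, against the same 30.6% called over all genes in the authors' deposited table. Of 18 listed, 6 fell and 2 rose by the authors' deposited table, with a median log2 fold change of -0.11. By the authors' deposited table the matricellular gene Ccn2 fell by 1.09 (SE 0.08, DESeq2 adjusted p = 1.96e-43) and Myc fell by 1.04 (SE 0.08, DESeq2 adjusted p = 1.14e-37). Btg2, an antiproliferative gene, fell by 0.56 in the authors' deposited table (SE 0.07, DESeq2 adjusted p = 2.53e-12). By the authors' deposited table the 2 that rose, named after their values were seen, were the nuclear receptor genes Nr4a2 (0.62, SE 0.12, DESeq2 adjusted p = 1.54e-06) and Nr4a3 (0.60, SE 0.16, DESeq2 adjusted p = 0.00101). Feedback inhibitors of the MAP kinases were split, with 4 of 13 up and 4 down in the authors' deposited table. Spred1 fell by 0.33 (SE 0.05, DESeq2 adjusted p = 4.34e-11) and Dusp4 fell by 0.41 (SE 0.09, DESeq2 adjusted p = 1.7e-05), while Dusp8 rose by 0.39 (SE 0.08), with a DESeq2 adjusted p of 6.38e-06 by the authors' deposited table.

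Of 20 genes known as AP-1 targets in fibroblasts, 6 fell and 0 rose in the authors' deposited table, with a median of -0.08. The share called in either direction lies near the 30.6% over all genes in the authors' deposited table. As lower alone, 6 of the 20 were called, beside 15.4% of all genes in the authors' deposited table. By the authors' deposited table the membrane protease Mmp14 fell by 0.62 (SE 0.06, DESeq2 adjusted p = 1.04e-25) and the secreted protease Mmp9 fell by 0.74 (SE 0.15, DESeq2 adjusted p = 4.85e-06). Fibroblast markers moved the same way. Of 10 such markers, 8 fell and 0 rose by the authors' deposited table, led by the collagen gene Col3a1, which fell by 1.29 (SE 0.06, DESeq2 adjusted p = 1.22e-86), and their part in the target genes' change was not tested. Macrophage markers were present, with mean normalised counts from 115 to 13089 in the authors' deposited table, and DESeq2 called 0 of 7, with 1 at an unadjusted p under 0.05. Of 4 endothelial markers DESeq2 called 0 in the authors' deposited table, also with 0 at an unadjusted p under 0.05, at means of 6.57 to 132. Of 3 epithelial markers 1 was called, Epcam at 0.64 (SE 0.22, DESeq2 adjusted p = 0.0147) with a mean normalised count of 41.0 in the authors' deposited table. The lists and their members' fold changes are shown in the plot of the pathway.

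**Figure D2:**
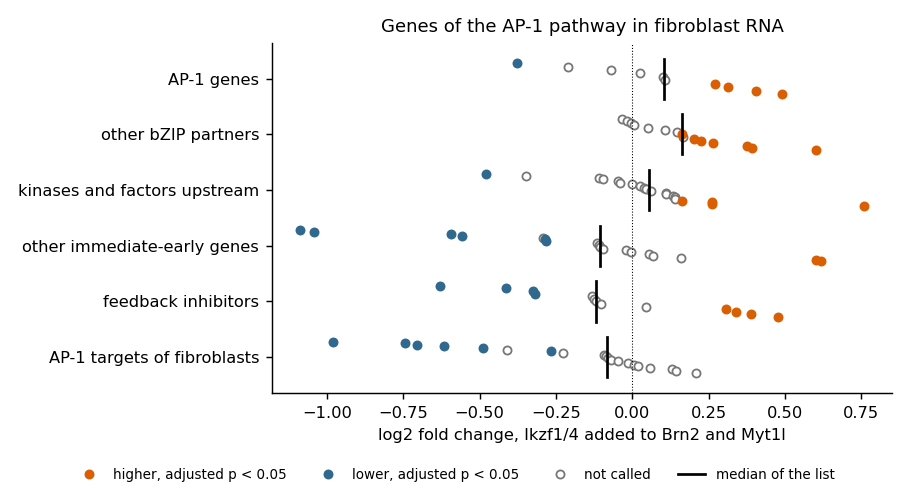
Log2 fold changes in fibroblast RNA, from the authors' deposited DESeq2 comparison, for the 10 AP-1 genes and 5 lists of related genes. Each point is 1 gene with an adjusted p, filled where that was under 0.05, and the black bar is the median of the list. The called AP-1 targets all lie to the left of 0, down to -0.98, while the called basic leucine zipper partners all lie to the right.

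Peaks of the 6 fibroblast ATAC-seq libraries were not set against the AP-1 genes. On chromosome 1 the lists ran to position 197135075 or beyond in every library, past the last fragment of the mm10-aligned files at 195371609, so their coordinates are not those of mm10, and no gene table of another build was used here.

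In the retina the AP-1 genes were described by their windows, the gene body and 2 kb on both sides in mm10 (RefSeq GRCm38.p6). Levels are fragments in the window per 1000000 fragments of the cells counted (CPM), given with exact 95% Poisson intervals in the plot by cell class. They are comparable between cell classes for 1 gene and not between genes, whose windows run from 5840 bp for Junb to 25369 bp for Fosl2. Set against the 3 main neuronal classes as 1 group, 6 genes were past 1.5-fold higher in Muller glia-like cells. In control cells, Fos, Fosb, Fosl2, Jun, Junb and Maff were over 1.5-fold higher in Muller glia-like cells than in rod-like, cone-like and bipolar-like cells together, against 11.0% of all windows with at least 100 fragments. For Fosb and Junb that excess was over cone-like and bipolar-like cells, since control rod-like cells did not differ from Muller glia-like ones beyond the interval (1.03-fold, 0.84 to 1.27, for Fosb and 1.07-fold, 0.85 to 1.36, for Junb). In the Ikzf1/4 library 5 of the 10 genes were past that fold, against 10.8% of windows, since Fosb was at 1.37 (1.19 to 1.58). Jund, at 1.24 (1.13 to 1.37) in the control and 0.94 (0.83 to 1.06) with Ikzf1/4, did not reach that fold, nor did Fosl1, Atf3 or Batf3. The neuronal group was made up differently in the 2 libraries, with rod-like cells at 4.93% of control and 19.6% of Ikzf1/4 cells. Ratios to that group are therefore not directly comparable between libraries, and the part of its make-up was not tested.

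**Figure D3:**
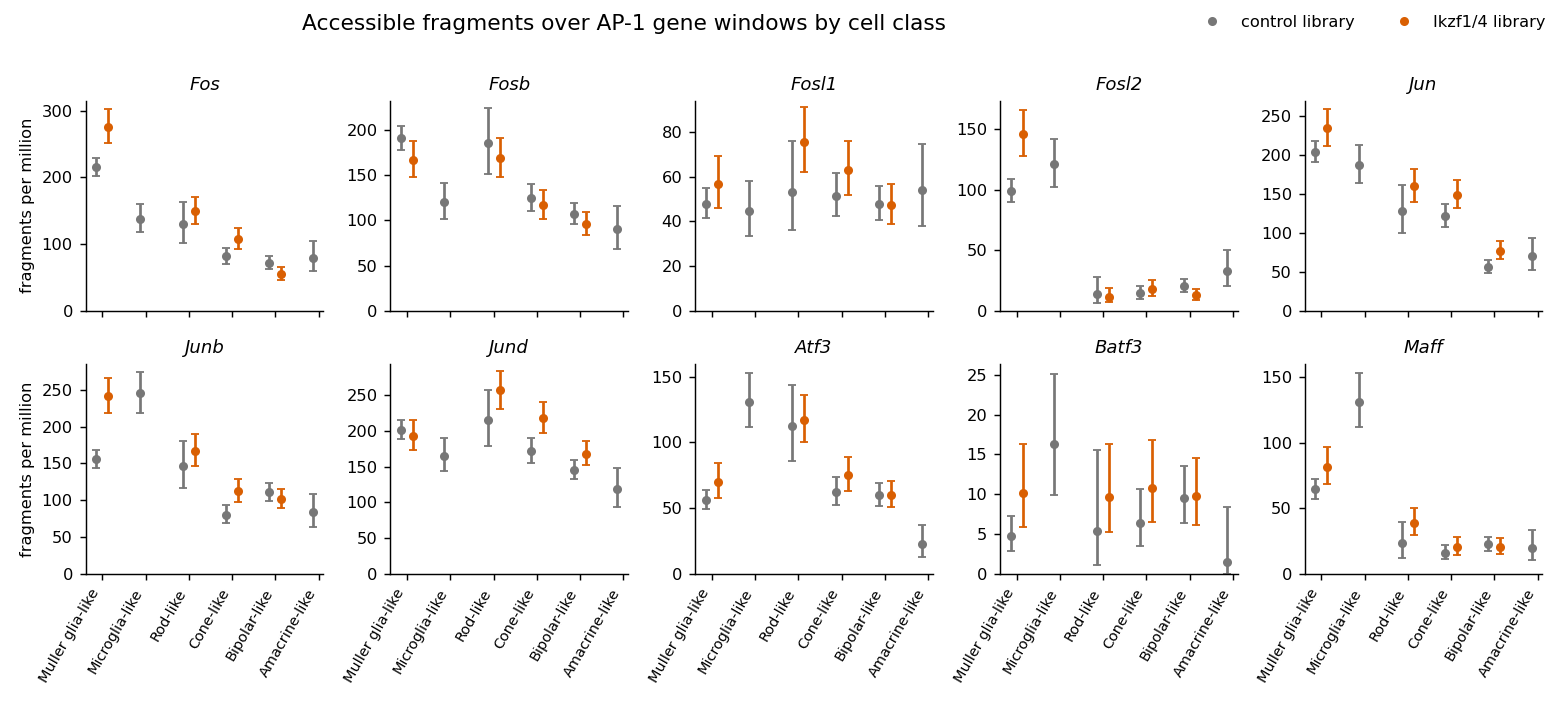
Fragments (CPM) in the window of each AP-1 gene by cell class, for the control library (grey) and the Ikzf1/4 library (orange). Points are sums over the cells of a class in 1 library, drawn where it had at least 50 cells, and bars are exact 95% Poisson intervals, which cover counting error only. Fosl2 and Maff stand at or above 64.4 CPM in Muller glia-like and microglia-like cells and at or below 38.8 in the neuronal classes.

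Over its whole window, Fos (chr12:85473890-85477274) was most accessible in Muller glia-like cells. Its control levels were 215 CPM there, 137 in microglia-like, 130 in rod-like, 81.6 in cone-like, 79.4 in amacrine-like and 71.6 in bipolar-like cells. The step from Muller glia-like to microglia-like cells was 1.57-fold (1.33 to 1.86), while the last 3 classes did not differ beyond their intervals. In the Ikzf1/4 library the order was the same over the 4 classes with enough cells, at 275 in Muller glia-like, 149 in rod-like, 108 in cone-like and 54.9 in bipolar-like cells. Each of these 4 classes stood apart from its neighbour in that library. Within 500 bp of the start the excess over microglia-like and rod-like control cells was not seen. Control levels there were 65.4 CPM (57.9 to 73.5) in Muller glia-like, 68.3 (54.5 to 84.6) in microglia-like and 76.5 (55.4 to 103) in rod-like cells. In the rest of the window they were 150, 69.1 and 53.4.

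Fosl2 (chr5:32136472-32157840) had the highest Muller glia-like level, relative to the 3 main neuronal classes together, of the 10 genes in both libraries. In control cells it stood at 121 CPM in microglia-like and 98.8 in Muller glia-like cells, and at 33.0 in amacrine-like, 20.3 in bipolar-like, 14.5 in cone-like and 14.2 in rod-like cells. Muller glia-like cells were 5.63-fold (4.53 to 7.04) above the 3 main neuronal classes together in control cells and 10.3-fold (7.96 to 13.4) above them with Ikzf1/4. There the levels were 146 in Muller glia-like, 18.2 in cone-like, 12.7 in bipolar-like and 11.8 in rod-like cells, and the neuronal classes did not differ from each other beyond their intervals. Only 13.0% of the control fragments of this window lay within 500 bp of the RefSeq start. Within 2 kb of the start, the highest 100 bp of Fosl2 insertions in Muller glia-like cells was centred 650 bp upstream, at 14.0 insertions per 1000000 (control) and 14.4 (Ikzf1/4), against 1.27 and 1.69 in bipolar-like cells.

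Fosb (chr7:19302696-19310118) was as high in rod-like as in Muller glia-like cells, at 185 and 190 CPM in control cells and 169 and 166 with Ikzf1/4. Cone-like cells were at 124, microglia-like at 120, bipolar-like at 107 and amacrine-like at 89.9 in the control, neighbours that did not differ beyond their intervals. The window also holds the start of another gene, with 11.6% of its control fragments. Fosl1 (chr19:5447698-5455938) had a narrow range in control cells, from 44.7 to 53.9 CPM in the 6 control classes, none of which differed from its neighbour. In the control its highest class was 1.21-fold (0.77 to 1.87) its lowest, while with Ikzf1/4 rod-like cells, at 75.6 CPM, were 1.60-fold (1.22 to 2.10) above bipolar-like cells at 47.3. Most of that window was not Fosl1: 69.8% of its control fragments and 68.1% of its Ikzf1/4 fragments lay within 500 bp of the start of another gene, since the window overlaps Ccdc85b. Its retinal values are therefore values of this pair of genes.

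Over its whole window, Jun (chr4:95049036-95052222) was high in both glial classes. Control levels were 204 CPM in Muller glia-like, 187 in microglia-like, 128 in rod-like, 122 in cone-like, 70.4 in amacrine-like and 56.1 in bipolar-like cells. Muller glia-like and microglia-like cells did not differ beyond the interval (1.09-fold, 0.94 to 1.26), nor did rod-like and cone-like cells. About equal parts of the Jun fragments lay at the start and elsewhere, with 50.5% of those in control cells within 500 bp of the start. That share was 45.4% in Muller glia-like and 72.2% in rod-like control cells. At the start the control levels were alike, at 92.4 CPM in Muller glia-like, 91.1 in microglia-like and 92.6 in rod-like cells. In the rest of the window they were 107, 85.4 and 35.6.

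Junb (chr8:84976909-84978748) was highest in microglia-like cells. In the control it stood at 246 CPM there, at 156 in Muller glia-like, 146 in rod-like, 111 in bipolar-like, 83.9 in amacrine-like and 80.3 in cone-like cells. The microglia-like level was 1.58-fold (1.37 to 1.81) that of Muller glia-like cells, which did not differ from rod-like cells beyond the interval. In the Ikzf1/4 library the Muller glia-like level of 242 was 1.45-fold (1.23 to 1.71) the rod-like level of 167. Jund (chr8:70697739-70700616) had a narrow range, from 118 in amacrine-like to 215 in rod-like control cells. In the Jund window 0.571% of the control fragments lay within 500 bp of the RefSeq start, and the highest 100 bp of insertions in Muller glia-like cells was centred 1150 bp inside the gene, at 30.2 insertions per 1000000. The window also overlaps Iqcn.

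Atf3 (chr1:191170296-191183333) was not higher in Muller glia-like cells than in the 3 main neuronal classes together, at 0.86-fold (0.73 to 1.01) in the control. In control cells it was at 131 CPM in microglia-like, 112 in rod-like, 62.1 in cone-like, 60.2 in bipolar-like, 56.4 in Muller glia-like and 22.5 in amacrine-like cells. Rod-like cells were 1.80-fold (1.32 to 2.45) above cone-like cells among control cells and 1.56-fold (1.24 to 1.98) above them with Ikzf1/4. At its start the bipolar-like level exceeded the Muller glia-like one, with 51.3 against 31.5 CPM within 500 bp in the control, while the rest of the window ran the other way, at 8.87 against 24.9. Batf3 (chr1:191098414-191108943) was the least covered, with 108 control and 116 Ikzf1/4 fragments over all cells, and no class differed from its neighbour in the order beyond the interval. Its control level in microglia-like cells, 16.3 CPM (9.93 to 25.1), was 10.9-fold (1.74 to 450.0) that in amacrine-like cells, which held 1 fragment, and its interval lay above that of Muller glia-like cells, at 4.70 (2.87 to 7.26).

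Maff (chr15:79346621-79359078) was a gene of the non-neuronal classes. Control levels were 131 CPM in microglia-like and 64.4 in Muller glia-like cells, and 23.1 in rod-like, 22.5 in bipolar-like, 19.5 in amacrine-like and 15.9 in cone-like cells. The neuronal classes did not differ from their neighbours in that order, while with Ikzf1/4 rod-like cells, at 38.8, were 1.88-fold (1.26 to 2.81) above bipolar-like cells. Over the neuronal classes together, the Muller glia-like excess was 3.21-fold (2.58 to 4.01) among control cells and 3.22-fold (2.52 to 4.10) with Ikzf1/4. Its signal sat mainly at the starts, with 59.1% of the control fragments within 500 bp of 1 of the 3. The highest 100 bp of Maff insertions was just before the second start, the one with TGACGTCA in the sequence above, at 9.29 insertions per 1000000 in control Muller glia-like cells and 2.38 in bipolar-like cells. The window also overlaps Tmem184b.

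**Figure D4:**
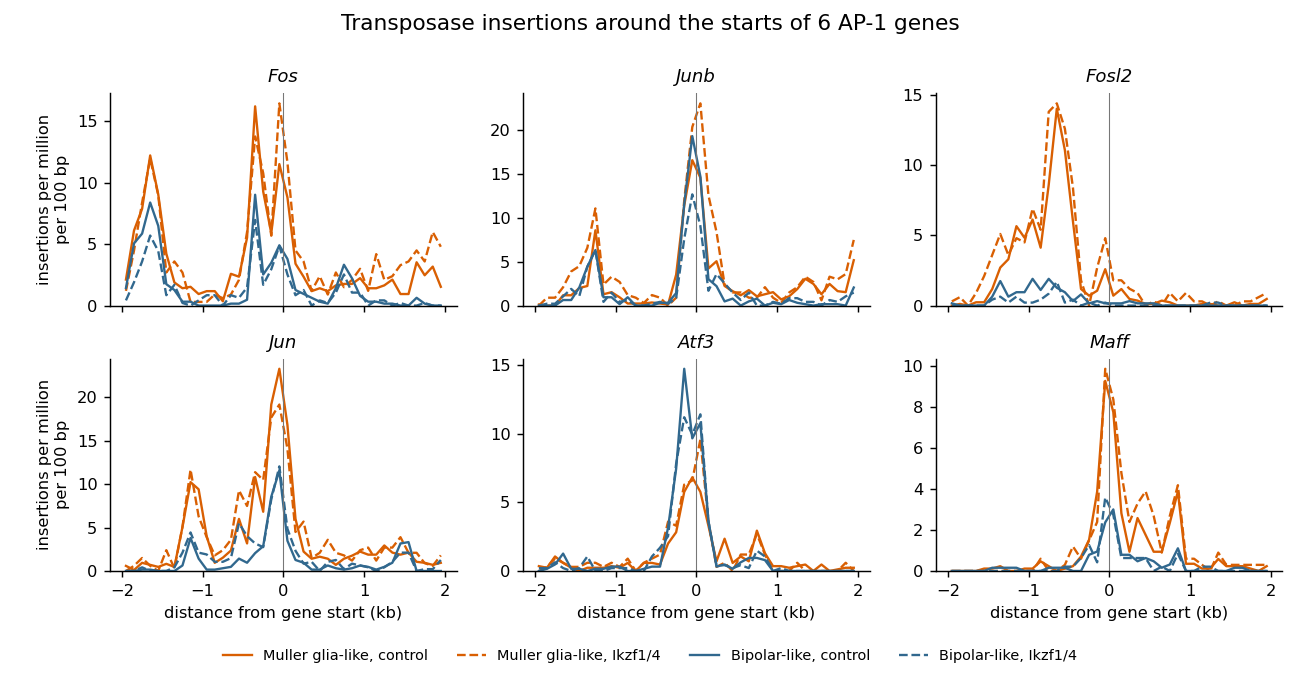
Transposase insertions per 1000000 insertions of the class in 100 bp steps, within 2 kb of the RefSeq start (for Maff the second start), with upstream to the left. Orange is Muller glia-like and blue bipolar-like, solid the control and dashed the Ikzf1/4 library. Insertions at Fosl2 gather 650 bp upstream in Muller glia-like cells, those at Fos form groups near 350 and 1650 bp upstream, and the start of Atf3 is higher in bipolar-like cells in both libraries.

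Over all cells, most of these genes had ratios near 1 between the 2 retinal libraries. The ratio of Ikzf1/4 to control was past 1.5-fold either way for 1 of the 10, Batf3, against 3.18% of 14834 windows with at least 200 fragments. Batf3 went from 7.82 to 12.1 CPM (ratio 1.55, 95% interval 1.18 to 2.03), and its ratio was between 1.25 and 1.51 under the other settings tried, 5 of which left it with under 200 fragments, too few to count. Fosb was lower at 0.84 (0.78 to 0.91) and Fosl2 at 0.81 (0.72 to 0.92), where 13.1% of windows had an interval below 1. Over all barcodes in place of cells Fosb was at 0.99 and Fosl2 at 0.93. Jund was at 1.10 (1.03 to 1.17) and Fosl1 at 1.14 (1.01 to 1.28), where 31.4% of windows had an interval above 1, and the other 5 lay between 0.93 and 1.10, beside a median of 1.05 over all windows. In the Ikzf1/4 library 12 cells with over 50000 fragments held 12.5% of the fragments. The control had 0 such cells, but it could not have kept any. The upper limit for a cell was set in each library, at 46889 fragments in the control and 194980 with Ikzf1/4. The unnamed cluster 9 had 18 Ikzf1/4 cells with a median of 47004 fragments. Without cells over 50000 fragments the ratio was 1.13 (1.05 to 1.21) for Junb, 1.13 (1.05 to 1.21) for Jun, 1.20 (1.13 to 1.28) for Jund, 1.20 (1.08 to 1.33) for Atf3 and 1.22 (1.08 to 1.38) for Fosl1. Those intervals lay above 1, as did 42.4% of all windows there, whose median ratio was 1.10. Fosb was at 0.92 (0.85 to 0.99) and Fosl2 at 0.85 (0.75 to 0.96) in those cells, below 1 as were 13.4% of windows, and Batf3 was at 1.37 (1.03 to 1.84) with under 200 fragments. The make-up of the libraries differed too: Muller glia-like cells were 34.3% of control and 20.03% of Ikzf1/4 cells, and rod-like cells 4.93% and 19.6%. Its part in the pooled ratios was not tested. The Fosb ratio was also under 1 within 5 of the named classes, at 0.87 in Muller glia-like, 0.91 in rod-like, 0.94 in cone-like, 0.90 in bipolar-like and 0.81 in microglia-like cells, with intervals that included 1. In the unnamed clusters it was lower, at 0.65 (0.50 to 0.83), and over the named classes only it was 0.90 (0.83 to 0.97). Junb was also below 1 in the unnamed clusters, at 0.72 (0.57 to 0.91), where 16.9% of windows had an interval below 1.

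Within Muller glia-like cells several AP-1 windows were more accessible in the Ikzf1/4 library. There were 647 such control cells and 140 with Ikzf1/4, with medians of 5463 and 8254 fragments. They came from clusters 0 and 3. At the finer resolution of 1, tried first, most of these cells lay in clusters that held mainly 1 library: 2 held 361 and 233 control cells with 2 and 5 Ikzf1/4 cells, and 2 held 72 and 61 Ikzf1/4 cells with 42 and 18 control cells. The cluster of 72 Ikzf1/4 and 42 control cells took the Muller glia name by the marker rule. Its leading genes held 1 astrocyte marker, Gfap, and 0 Muller glia markers. A difference of state and a difference between libraries cannot be told apart here. With classes from that resolution the ratios were 1.54 for Junb, 1.48 for Fosl2 and 1.27 for Fos. The class was then nearly the same in size, so these ratios are not a separate check. Of the 9 genes with at least 100 fragments, Junb was past 1.5-fold, against 9.03% of 11786 windows. The interval lay above 1 for 5 of the 9 (Fos, Fosl2, Jun, Junb and Maff), against 15.5% of windows, and below 1 for 0, against 8.73%. An interval clears 1 more easily with more fragments, and windows were not matched for fragment number, here or in the other classes. By ratio alone, 84.5% of windows lay below Fos, 95.1% below Fosl2, 69.5% below Jun and 83.4% below Maff. The median ratio of the 9 genes was 1.24, beside 1.03 over all windows. Batf3, with 20 and 17 fragments, had too few to count.

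Junb went from 156 to 242 CPM in Muller glia-like cells (ratio 1.55, 1.37 to 1.76), and 96.7% of all windows had a lower ratio. Fosl2 went from 98.8 to 146 (1.48, 1.26 to 1.74). Both ratios had intervals above 1 in each of the 2 Muller glia-like clusters taken alone. In cluster 0 they were 1.61 for Junb and 1.36 for Fosl2, and in cluster 3 they were 1.38 and 1.55. Of the windows in cluster 0, 97.1% had a lower ratio than Junb and 89.2% a lower one than Fosl2. In cluster 3 these shares were 84.0% and 92.3%. The gain at Junb was seen at the start (1.38, 1.11 to 1.70) and in the rest of the window (1.66, 1.42 to 1.95). For Fosl2 these ratios were 1.78 (1.17 to 2.69) and 1.43 (1.20 to 1.70). Junb was not past 1.5-fold with at least 10000 fragments per cell, per fragments in gene windows, or at the gene ends.

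The other 3 also depended on the cells or the window taken, and their intervals included 1 in cluster 0. Fos went from 215 to 275 CPM (1.28, 1.14 to 1.43), but its ratio was 1.03 (0.85 to 1.24) in cluster 0 and 1.31 (1.13 to 1.52) in cluster 3, and 1.05 among cells with at least 10000 fragments. Jun went from 204 to 234 (1.15, 1.018 to 1.297), with 0.93 in cluster 0 and 1.24 in cluster 3. Cluster 3 held 273 of the 647 control and 77 of the 140 Ikzf1/4 cells of the class, and its Fos level was the higher one in both libraries, at 270 against 183 CPM in the control. Maff went from 64.4 to 81.4 (1.26, 1.02 to 1.56), with 1.12 (0.81 to 1.51) in cluster 0 and 1.42 (1.04 to 1.92) in cluster 3, and was at 0.99 when only 1 kb on both sides of the gene ends was counted. Fosb was not among them, at 0.87 (0.760 to 1.003) in the class and at 0.80 (0.64 to 0.997) and 0.83 (0.69 to 0.991) in clusters 0 and 3, nor was Jund (0.96, 0.84 to 1.09).

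Related genes in the same cells give the background of the pathway. Over all windows in Muller glia-like cells, 4.48% were past 1.5-fold higher and 4.55% lower. Of 16 other immediate-early genes with enough fragments there, 3 windows were past 1.5-fold higher and 0 lower, with a median ratio of 1.17. Of 12 feedback inhibitors 4 were past it higher and 0 lower, with a median of 1.31. Of 14 other basic leucine zipper partners 0 were past it higher and 1 lower, with a median of 1.10. Of 20 upstream kinases and factors 0 were past it either way (median 1.05), and the same held for the 7 AP-1 targets with enough fragments (median 1.15).

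In cone-like cells the direction was similar. Of the 7 AP-1 genes with enough fragments 0 were past 1.5-fold, against 5.00% of windows, and 4 had an interval above 1 (Fos, Jun, Junb and Jund), against 13.2% of windows. Junb went from 80.3 to 113 CPM (1.40, 1.14 to 1.73) and Fos from 81.6 to 108 (1.32, 1.07 to 1.63), the latter at 1.07 among cells with at least 10000 fragments. At resolution 1 the cone-like cells also split by library, into a cluster of 241 control and 2 Ikzf1/4 cells and another of 15 control and 134 Ikzf1/4 cells, so that here too a difference of state and a difference between libraries cannot be told apart. In rod-like cells 0 of 7 were past 1.5-fold, against 7.95% of windows, and all 7 intervals included 1, where 12.4% of windows had an interval off 1. That class had 93 control cells and 561790 control fragments, which limits what could be seen.

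In bipolar-like cells the intervals lay on both sides of 1. Of 8 genes 0 were past 1.5-fold, against 6.32% of windows, and the median ratio of the 8 was 0.96 beside 1.08 over all windows. The interval lay above 1 for Jun and Jund, against 20.1% of windows, and below 1 for Fos, against 6.57%. Fos went from 71.6 to 54.9 CPM (0.77, 0.61 to 0.96), Jun from 56.1 to 76.9 (1.37, 1.11 to 1.70) and Jund from 145 to 168 (1.16, 1.009 to 1.326). The class is made of different clusters in the 2 libraries: cluster 8 held 113 Ikzf1/4 cells and 0 control cells, cluster 7 held 121 control and 7 Ikzf1/4 cells, and cluster 1 held 344 and 74. In cluster 1 alone Jun was at 1.37 (1.02 to 1.84), while Fos was at 0.94 (0.69 to 1.26) and Jund at 1.06 (0.87 to 1.29), with intervals that included 1. Junb was at 0.75 (0.58 to 0.96) in that cluster, below 1. Fosb was split within its window in bipolar-like cells, with a ratio of 0.58 (0.42 to 0.78) within 500 bp of the start and 1.29 (1.01 to 1.64) in the rest. At the Fosb start it was also below 1 in cone-like cells (0.72, 0.52 to 0.98, against 1.17 in the rest) and over all cells (0.75, 0.66 to 0.85, against 0.90), while in Muller glia-like cells it was 0.94 (0.73 to 1.19) there and 0.83 (0.69 to 0.991) in the rest. Junb in bipolar-like cells was at 0.75 (0.57 to 0.96) at its start and 1.07 (0.86 to 1.35) in the rest. Fos ran the other way there, at 0.86 (0.60 to 1.22) and 0.71 (0.53 to 0.95). The same ratios over all gene starts were not computed. Microglia-like cells, at 117 control and 19 Ikzf1/4 cells, gave intervals that included 1 for all 8 genes with enough fragments, where 16.9% of windows had an interval off 1. Amacrine-like cells, at 74 control and only 5 Ikzf1/4 cells, had enough fragments for Jund alone. Its ratio there was 1.87 (1.12 to 3.01), where 10.8% of windows were past 1.5-fold higher. The plot of ratios sets these classes side by side.

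**Figure D5:**
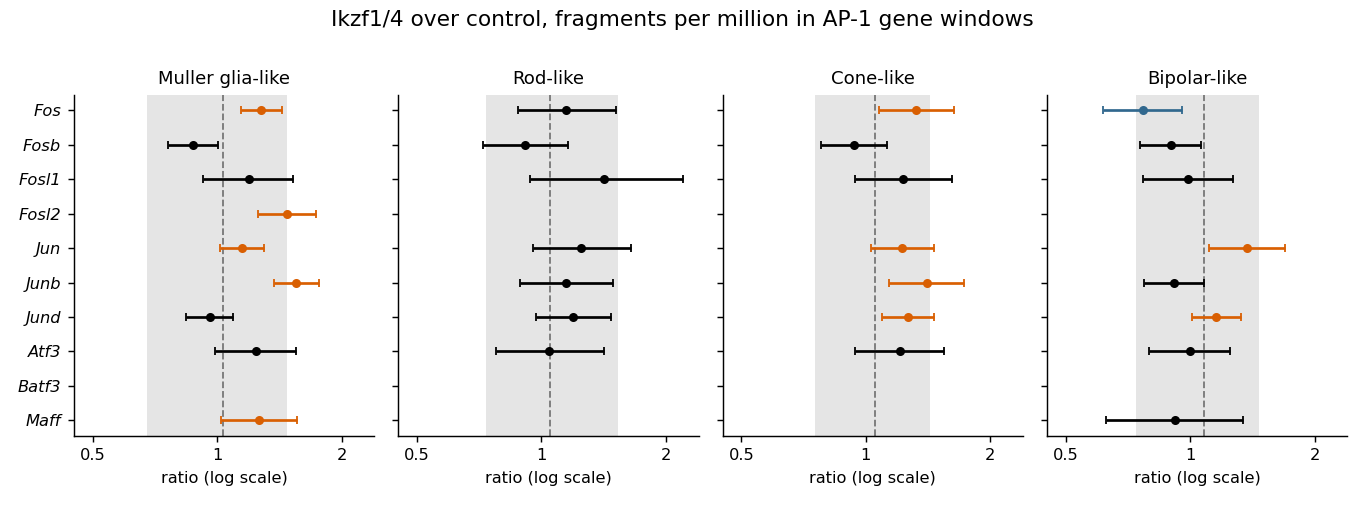
Ratio of the Ikzf1/4 to the control library in CPM, on a log scale, for each AP-1 gene with at least 100 fragments in the class. Bars are 95% counting intervals, orange where they lie above 1 and blue below. The dashed line is the median of all windows and the grey band their 5th to 95th percentile. Junb at 1.55 and Fosl2 at 1.48 lie past that band in Muller glia-like cells.

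Most of the 5 gene windows most like the family were immediate-early genes. Over 10 sums of cells (6 classes of the control and 4 of the Ikzf1/4 library), the mean of the 10 centred log2 levels was highest in Ikzf1/4 Muller glia-like cells and control microglia-like cells and lowest in control amacrine-like cells. Among 14223 windows outside the AP-1 loci, the 5 with the highest Pearson correlation to it were Zfp36 (0.955), Ier2 (0.954), Egr1 (0.954), Btg2 (0.948) and Snx10 (0.948). Zfp36, Ier2, Egr1 and Btg2 are immediate-early genes of the fixed list, and Snx10 is not. Within the family Junb followed the mean most closely (0.954), then Maff (0.913) and Jun (0.890), while Fosl1 did not (0.080). Each AP-1 gene is part of the mean it is compared with, and the sums share libraries and depth, so these values are a description.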

How the data were processed

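The members and gene lists were chosen with earlier results of these data known. Per the labels, RNA was poly(A)-selected and quantified with Salmon and compared with DESeq2. The authors' deposited table holds per gene a mean normalised count (a signal over the libraries compared), the log2 fold change and its standard error, the Wald test score, and p-values before and after adjustment, used as deposited at an adjusted p of 0.05. Versions of Salmon and DESeq2, and whether fold changes were shrunk, are not stated in these sources. In the authors' deposited table standard errors were not larger at the lowest counts, at 0.075 for Krt8 (mean 1.34) and 0.181 for Fos (mean 396). A small fold change at a low count, as for Batf3, is therefore not a precise null. The fold thresholds may apply to shrunken values. For the ATAC-seq lists the submitters' processing notes name Bowtie2, MACS2, mm9 and mm10. The multiome files hold counts of read pairs for each unique fragment, deposited by the authors, and were made with cellranger-arc 2.0.1 on mm10, per the file headers.

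Barcodes were kept as cells at 3000 or more fragments, a start enrichment of at least 4 and a total below the 99th percentile, and no doublet caller was run. They were clustered on 5 kb autosomal bins (5000 bp) outside the AP-1 windows (latent semantic indexing with scikit-learn 1.9.0, 20 neighbours, leidenalg 0.10.2, resolution 0.3). Resolution 1 was tried first. It was lowered after its clusters were seen, because 1 Muller glia-like cluster then had more astrocyte than Muller glia markers among its leading genes, and it is kept as an alternative. A cluster took the name of a marker list whose mean log2 fold was at least 0.8 with at least 50% of its markers over 1.5-fold. Fragments were assigned by midpoint. Ratio intervals are exact (conditional binomial, scipy 1.17.1) at 95%. Their code was tested on simulated Poisson counts, which hold counting error only and so cannot show coverage on these data. Windows needed 200 fragments over all cells or 100 in a class. Named genes were all members, and of each pathway list the 3 with the smallest adjusted p and those called with a log2 fold change over 1. The marker lists were not named by this rule, and Nr4a2 and Nr4a3 were named outside it. Of the AP-1 targets, 1 gene that this rule names is not reported here. The planned per-library RNA test and the peak overlaps were not run. The sources used here did not pair transcripts with genes and held no gene table in the build of the peak lists. Alternatives are in the closing section.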

Additional observations from a re-analysis of the deposited data

Results flagged for a closer look

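Fos and Fosl2 had ratios of Ikzf1/4 to control in opposite directions in 2 cell classes, each with a counting interval off 1, which is what brought them up; the difference between classes was not tested. For Fos the ratio was 1.28 in Muller glia-like and 0.767 in bipolar-like cells, and 1.32 in cone-like against 0.767 in bipolar-like cells. For Fosl2 it was 1.48 in Muller glia-like and 0.625 in bipolar-like cells, the latter from 64 control and 30 Ikzf1/4 fragments, fewer than the 100 required of a window in a class, so it is not among the bipolar-like counts. The bipolar-like cells of the 2 libraries fell in different clusters, and in the shared cluster 1 the ratio was 0.94 (0.69 to 1.26) for Fos and 0.83 (0.46 to 1.45) for Fosl2.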

How the results depend on the processing

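In fibroblast RNA, 5 of 10 AP-1 genes were called (30.6% of all genes), 2 at an adjusted p under 0.01 (22.5%), 0 with a log2 fold change over 1 as well (2.15%), and 4 when p-values were adjusted over all genes with a raw p (19.3%). Over all retinal cells the count past 1.5-fold was 1 (Batf3) and became 0 over all barcodes, with at least 10000 fragments per cell, per fragments in gene windows, with 1 kb on both sides of the gene ends, with at least 2 read pairs, and, both chosen after seeing the data, with at most 50000 fragments per cell or in named classes only. In 5 of these 7 settings, those of at least 10000 fragments, gene ends, 2 read pairs, at most 50000 fragments and named classes, Batf3 left the count with under 200 fragments, at ratios of 1.25 to 1.51. The share of all windows past 1.5-fold was 3.18% and ranged from 2.06% to 6.22% over the 7. In Muller glia-like cells the count was 1 (Junb), 0 with at least 10000 fragments, per gene-window fragments or at the gene ends, and 2 with at most 50000 fragments (Fosl2 at 1.55), beside 9.03% of windows and 10.3%, 9.08%, 7.78% and 8.36% in those settings. In rod-like cells it was 0 (7.95% of windows) and became 2 with at least 10000 fragments (25.7%), and in bipolar-like cells 0 (6.32%) and became 1 at the gene ends (9.22%). The Muller glia-like ratio turned to 0.93 for Jun in cluster 0 and to 0.99 for Maff at the gene ends. The causes were not tested. Of the other values of single genes, 324 stayed within their interval or kept their call, 34 moved and 9 lost the call. Classes from clustering at resolution 1, the setting tried first, changed none of the 4 class counts. The Muller glia-like, rod-like and cone-like classes were nearly the same in size at both resolutions. For them this setting was close to the main one and gave no separate check. The lower resolution of the main classes was the one chosen after seeing the data.

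No paired analysis was possible because gene-level values per fibroblast library were not at hand, the peaks could not be set against genes, and the retina has 1 library per condition. For the same reason the planned settings for RNA by library and for peaks, leaving out replicates among them, were not run. Depth limits the retinal classes: rod-like control cells held 561790 fragments, and Batf3 had 224 in all.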
